A study of Caenorhabditis elegans with 2 samples.

Results

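The genes described here are 38 structural and regulatory genes of the body wall muscle of Caenorhabditis elegans, taken by name out of 19973 protein-coding genes annotated on the 6 chromosomes. All 38 names were matched in the annotation. They encode thick filament proteins (7 genes), giant and M-line proteins (5), thin filament proteins and their regulators (14), dense body and integrin adhesion proteins (8), and membrane and calcium handling proteins (4). The rule that names them uses no measured value.

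Chromatin immunoprecipitation followed by sequencing had been used to map the sites on the genome held by UNC-39, a DNA-binding homeodomain protein related to vertebrate Six4 and Six5. The worms were strain OP186, which carries the unc-119(ed3) III allele and the integrated transgene wgIs186. This transgene supplies UNC-39 tagged with eGFP, and the labels do not name the promoter that drives it. Whole embryos of mixed stage and mixed sex were used, in 2 biological replicates that form the only group, so no comparison between conditions exists. The antibody is given as unc-39 in one label, while another describes the assay as directed at eGFP-unc-39. Muscle is only part of a whole embryo. A site held in a small share of the cells and a site weakly held in many of them cannot be told apart.

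Body wall muscle of the worm is obliquely striated and runs along the body below the hypodermis. Myosin thick filaments are anchored at M-lines, actin thin filaments are anchored at dense bodies, and both anchors attach through integrin to the basement membrane. UNC-39 is known for roles in the differentiation of mesoderm, in cell migration and in neuronal identity, and its vertebrate relatives act in skeletal muscle development.

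The deposited lists give each peak a summit, a signal score from the authors' peak caller and a −log10 q value. The called list holds what remained after the authors thresholded the irreproducible discovery rate (IDR) between replicates, 267 regions in all. The relaxed lists held 9046 regions for the pooled replicates, 15880 for replicate 1 and 30000 for replicate 2. Relaxed lists were made to contain background. Of the 9046 pooled regions, 447 (4.94%) carried a q under 0.05 and 7212 (79.7%) a q over 0.5. The called regions were exactly the pooled regions of rank 1 to 267, where rank 1 has the highest signal, and the lowest signal among them was 44.4. A summit was counted for a gene when it lay within 2000 bp of one of the gene's transcription start sites (TSSs) or inside the gene body. Read depth was not given in these sources. Signals are the authors' values and were read only within a list.

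No body wall muscle structure gene held a called summit. The strongest summits at these genes lay just below the called list, upstream of pat-4, the integrin-linked kinase, and of unc-112, the worm kindlin. Those of act-4, an actin gene, unc-97, the worm PINCH protein, and unc-60, the worm cofilin, came next. Windows of 201 bases around the summits of pat-4, unc-112 and unc-60 are shown because these 3 of the 5 strongest lay beside the GA repeat GAGAGAGA. A weaker summit of pat-6, the worm parvin, is shown for the same repeat. The act-4 window is given for contrast, since none of the 4 searched motifs occurred in it. Each is written 5′ to 3′ on the strand of the named gene, from the RefSeq copy of the WBcel235 assembly (ce11), with the pooled summit at the middle base. Capitals mark searched motifs, here TCTCTCTC, which is GAGAGAGA on the other strand, and in pat-4 also TGCGTCTC, which is GAGACGCA on the other strand.
pat-4 chrIII:96333-96533 (minus strand): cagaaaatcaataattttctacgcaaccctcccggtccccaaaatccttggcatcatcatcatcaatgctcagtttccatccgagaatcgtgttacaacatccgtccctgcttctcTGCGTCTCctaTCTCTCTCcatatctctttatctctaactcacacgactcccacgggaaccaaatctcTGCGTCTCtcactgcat
unc-112 chrV:14696947-14697147 (minus strand): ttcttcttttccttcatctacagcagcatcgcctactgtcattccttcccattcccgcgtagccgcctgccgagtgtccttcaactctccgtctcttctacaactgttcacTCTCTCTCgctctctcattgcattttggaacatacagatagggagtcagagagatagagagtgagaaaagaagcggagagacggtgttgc
unc-60 chrV:1474562-1474762 (plus strand): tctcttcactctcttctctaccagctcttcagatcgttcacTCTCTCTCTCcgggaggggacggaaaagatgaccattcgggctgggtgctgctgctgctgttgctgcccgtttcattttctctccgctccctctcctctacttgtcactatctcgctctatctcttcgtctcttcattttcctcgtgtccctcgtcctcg
pat-6 chrIV:264530-264730 (minus strand): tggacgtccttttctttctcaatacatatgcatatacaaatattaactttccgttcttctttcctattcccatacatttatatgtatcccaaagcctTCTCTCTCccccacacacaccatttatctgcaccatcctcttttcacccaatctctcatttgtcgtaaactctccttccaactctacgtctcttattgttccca
act-4 chrX:4962227-4962427 (plus strand): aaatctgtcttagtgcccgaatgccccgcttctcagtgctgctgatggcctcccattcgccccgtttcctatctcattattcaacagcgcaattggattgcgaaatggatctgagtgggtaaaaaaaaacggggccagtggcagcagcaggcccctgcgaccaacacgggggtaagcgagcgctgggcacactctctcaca

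In the pat-4 window the motif GAGACGCA occurred 2 times, with the GA repeat between both copies. The centre of the GA repeat lay 31 bp from the summit at pat-4, 15 bp at unc-112, 54 bp at unc-60 and 1 bp at pat-6. The summits of pat-4, unc-112 and unc-60 had ranks 270, 319 and 675 in the pooled list, while that of pat-6 had rank 5267. A GA repeat within 100 bp of the summit was found at 6 of the 55 distinct pooled summits of the muscle genes (10.9%), at 443 of the 9046 pooled summits (4.9%) and at 34 of the 267 called ones (12.7%). Among the 675 pooled regions ranked as high as the unc-60 summit or higher, 76 (11.3%) held the repeat. The other summits with the repeat lay at ttn-1 (rank 6819) and unc-89 (rank 7946). GAGACGCA, an 8-letter sequence that had come up in earlier work on these data, was found at 2 member summits (3.64%), those of pat-4 and dys-1, against 319 of all pooled summits (3.53%) and 29 called ones (10.9%). The 2 matches of the GA repeat at unc-60 overlap each other. All motifs were searched on both strands.

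The sequence TGACACC, of the kind bound by Six4 type homeodomain proteins in vertebrates, was found within 100 bp of 4 of the 55 member summits (7.27%). It was found at 314 of all pooled summits (3.47%) and at 13 called summits (4.87%). All 4 member summits had the match within 50 bp (7.27%), beside 176 of all pooled summits (1.95%) and 10 called ones (3.75%). The windows of 101 bases around these 4 summits are shown, written in the same way, with TGACACC or its other strand GGTGTCA in capitals.
act-4 chrX:4963208-4963308 (plus strand): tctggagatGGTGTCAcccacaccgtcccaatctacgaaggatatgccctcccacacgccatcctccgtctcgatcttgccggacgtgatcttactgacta
unc-96 chrX:619702-619802 (minus strand): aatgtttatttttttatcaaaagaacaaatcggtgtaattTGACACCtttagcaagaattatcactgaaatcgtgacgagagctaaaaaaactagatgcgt
egl-19 chrIV:7406973-7407073 (plus strand): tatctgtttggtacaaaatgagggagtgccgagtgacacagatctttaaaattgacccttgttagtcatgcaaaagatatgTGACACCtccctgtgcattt
unc-22 chrIV:12012328-12012428 (minus strand): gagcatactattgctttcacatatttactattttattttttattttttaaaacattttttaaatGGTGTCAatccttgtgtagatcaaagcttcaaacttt

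These 4 summits had ranks in the pooled list of 1969 for act-4, 4316 for unc-96, 5119 for egl-19 and 5411 for unc-22. The act-4 summit lay in a coding exon, those of unc-96 and egl-19 in introns, and that of unc-22 upstream, at 1371 bp before its nearest TSS. Of them, the act-4 and unc-22 summits had a summit within 100 bp in each replicate list. None of the 4 searched motifs was within 100 bp of the unc-97 summit or of the strongest act-4 summit. The E-box CAGCTG, of the kind bound by myogenic basic helix-loop-helix factors, was near 1 member summit (1.82%), that of unc-89 with rank 1759. It was near 494 of all pooled summits (5.46%) and 24 called ones (8.99%). In all, 12 of the 55 member summits had at least 1 of the 4 motifs. The same count was not made over all pooled or called summits, so this one has no share to be read against. A match says only that these letters are present in the window.

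The called list held a summit at 0 of the 38 muscle genes, for which the exact 95% interval reaches up to 9.25%, and at 325 of all protein-coding genes (1.63%). Long genes offer more room for a summit, and the muscle genes are long, with a median body of 4645.5 bp against 2027 bp for all protein-coding genes. Each muscle gene was therefore set beside the other protein-coding genes that were at most 25% longer or 20% shorter, leaving out the 38. Their shares add up to 1.81 genes of 38 with a called summit. For ttn-1 there was 1 gene of similar length and for unc-89 there were 8. Over the 36 muscle genes with at least 20 genes of similar length the sum was 0.805 genes. The called summit closest to any muscle gene lay 12747 bp from a TSS of atn-1, the worm alpha-actinin, and 2656 bp upstream of egl-10. None of the 38 had a called summit within 10000 bp of a TSS, against 1072 of all protein-coding genes (5.37%), and the median distance was 115722 bp against 143988 bp.

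In the relaxed pooled list, 25 of the 38 muscle genes held a summit (65.8%, exact 95% interval 48.6% to 80.4%), beside 37.6% of all protein-coding genes. Genes of similar length gave 19.1 of 38 (50.3%), a share that lies inside the interval. Replicate 1 alone had a summit at 31 muscle genes (81.6%), beside 56.0% of all protein-coding genes and 25.8 of 38 at similar length. Replicate 2 alone had one at 34 (89.5%), beside 77.4% of all genes and 32.4 of 38 at similar length. A pooled summit that both replicate lists also held, within 100 bp, was found at 14 muscle genes (36.8%, interval 21.8% to 54%). This was beside 17.5% of all protein-coding genes and 10.5 of 38 at similar length. Each of these 4 counts was higher than the count at similar length, and each value at similar length lay within the interval of the muscle genes. The pooled list was made from both replicates, so the 4 counts are not separate observations. The intervals treat hand-picked genes as independent, so their position is a description and no test. Counting only the upper 50% of the pooled list by signal left 16 genes with a summit, and counting only summits within 2000 bp of a TSS left 9 seen in both. Both settings can only lower a count, at any gene, and no share over other genes is given for the 16 or the 9. With summits within 2000 bp of a TSS alone, 20 muscle genes had a pooled summit, where similar length gives 15.49. The intervals cover counting error only.

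**Figure D1:**
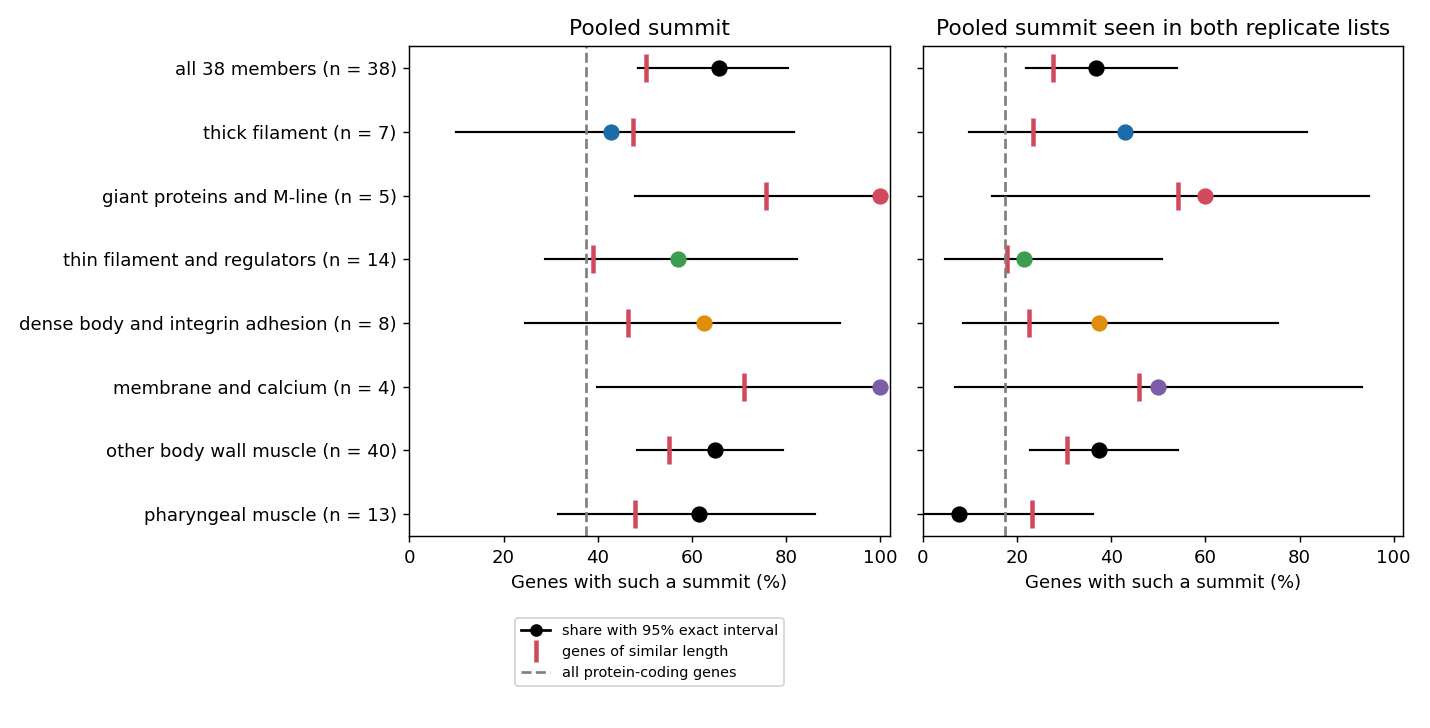
Share of genes (%, horizontal axis) with a pooled summit, left, and with a pooled summit seen in both replicate lists, right, for all 38 muscle genes, their 5 role groups and 2 further gene lists. Points are shares with exact 95% intervals as lines, red ticks the share among genes of similar length and dashed lines the share of all protein-coding genes (37.6% and 17.5%). Every red tick lies inside its interval, but the intervals of the small role groups are wide, and this is no test.

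By strength, 5 muscle genes (13.2%) held a pooled summit of rank 1000 or better, beside 5.54% of all protein-coding genes and 4.38 of 38 at similar length. A summit with q under 0.05 was found at 2 of them (5.26%), pat-4 and unc-112, beside 2.64% of all protein-coding genes and 2.42 of 38 at similar length. The 1 gene of similar length to ttn-1 held a called summit, so it adds a whole gene to the 4.38 and to the 2.42. Both sums were taken over all 38 only. The median best rank of the 25 genes was 2631, which is 29.1% of the way down the list, with a range of 270 to 8834. The median over all protein-coding genes with a summit was 3937 (43.5%). It was 4162 over those under 3000 bp and 2852 over those of 10000 bp and over. For each muscle gene the median best rank of the genes of similar length was also taken, and the median of these values was 3942. The value for the muscle genes was 36.94% when summits within 1000 bp or within 5000 bp of a TSS were taken. It was 16.29% of the list when replicate 2 alone was used, a list that is longer and held more summits per muscle gene. No value over other genes is given for these settings, so they do not set the muscle genes apart. Of the 55 distinct summits, 46 had a q over 0.5. Their median signal was 21.96, with a range of 18.4 to 44.2, and the median of all pooled regions was 21.96.

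**Figure D2:**
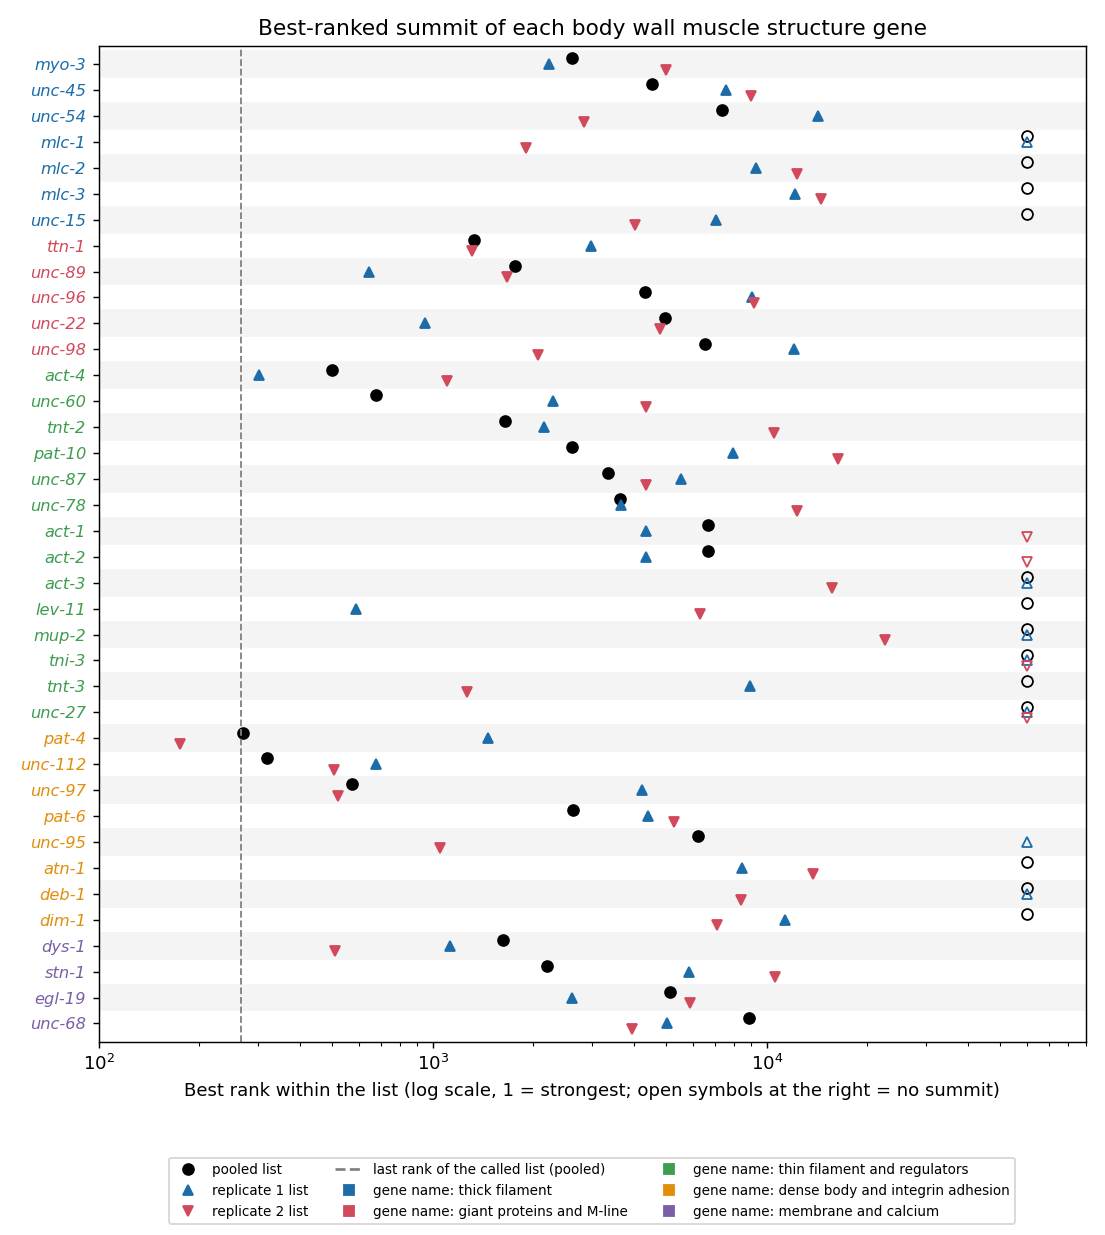
Best rank (horizontal axis, log scale, 1 is the strongest) of a summit at each of the 38 muscle genes in the pooled list (circles), the replicate 1 list (upward triangles) and the replicate 2 list (downward triangles); open symbols at the right mark genes with no summit in that list. Gene names are coloured by role and the dashed line is the last called rank, 267; in the pooled list every circle lies to its right.

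The replicate lists held different numbers of summits at the muscle genes, as they did in the genome. There were 91 in replicate 1, with a median of 1.5 per gene and at most 12, and 197 in replicate 2, with a median of 3 and at most 29. Of the 38 genes, 22 had a summit in the pooled list and in both replicate lists, although not always at the same place. Replicate 2 had no summit at act-1 or act-2, which held one in the pooled and replicate 1 lists, and replicate 1 had none at unc-95, which held one in the pooled and replicate 2 lists. Another 7 genes had summits in both replicate lists and none in the pooled list. The genes mlc-1, act-3, mup-2 and deb-1 had summits in replicate 2 alone, and tni-3 and unc-27 had none in any list. Over the 55 distinct pooled summits, 19 (34.5%) were seen in both replicate lists, beside 3486 of all pooled summits (38.5%). At another 13, among them that of unc-112, the closest summit of a replicate list lay more than 100 and up to 200 bp away. With 200 bp allowed, 18 genes in place of 14 had a summit seen in both. A wider distance can only raise this count, at any gene, and no share over other genes is given at 200 bp.

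Thick filament genes encode the myosin motor and its core. A pooled summit was found at 3 of the 7, where similar length gives 3.33, and the best of them had rank 2610. That summit lay in a coding exon of myo-3, which encodes the myosin heavy chain at the centre of the filament, with a signal of 24.9. Replicate 2 had a summit within 100 bp of it, at rank 9781. In replicate 1 the closest summit lay 110 bp away, at rank 2230 with a signal of 16.4. A further myo-3 summit, 1435 bp upstream, was seen in both replicates but had rank 7580. The gene unc-54, which encodes the main body wall myosin heavy chain, had 2 pooled summits in coding exons, of ranks 7337 and 8117, and the former was seen in both replicates at ranks 14237 and 5845. The single pooled summit of unc-45, the myosin chaperone, lay in a coding exon at rank 4524 and was seen in both replicates, at ranks 7555 and 19956. The paramyosin gene unc-15 and the light chain genes mlc-1, mlc-2 and mlc-3 had no pooled summit. At mlc-1, which encodes a regulatory light chain, replicate 2 alone held 5 summits, the best at rank 1907 with a signal of 14.3. The coding sequences of mlc-1 and mlc-2 are identical at 96.7% of their 510 bases, and the sources used here do not say how reads that map to both were treated.

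The giant and M-line proteins link or regulate the thick filaments. All 5 genes held a pooled summit, where similar length gives 3.78, and together they held 21 of the summits. The titin-like gene ttn-1, of 81724 bp, held 8 pooled summits, 4 of them seen in both replicates. Its best lay in a coding exon, 614 bp from the start of the gene body and 515 bp downstream of the nearest of its annotated TSSs, at rank 1326 with a signal of 29.1, and had rank 3504 in replicate 1 and 3472 in replicate 2. The gene of similar length held 11 summits. Another 2 of the ttn-1 summits lay in introns, 74 and 154 bp upstream of TSSs of exp-2, a potassium channel gene annotated inside ttn-1. The second-best ttn-1 summit, of rank 2495, also lay in an intron, in sequence that exp-2 covers, 409 bp downstream of a TSS of exp-2. The obscurin gene unc-89, of 55184 bp, also held 8, beside a mean of 6 over the 8 genes of similar length. Its best had rank 1759 in an intron, with a signal of 27.4, and was seen in both replicates at ranks 4529 and 1675. The twitchin gene unc-22, of 38311 bp, held 3 pooled summits, beside a mean of 3.67 at similar length, with a best rank of 4953. That of rank 5411 lay 1371 bp upstream of the gene. For the M-line proteins encoded by unc-96 and unc-98, the single pooled summits had ranks 4316 and 6535. The former was seen in replicate 1 alone and the latter in replicate 2 alone. The unc-98 summit lay in sequence that the gene pcyt-1 also covers.

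**Figure D3:**
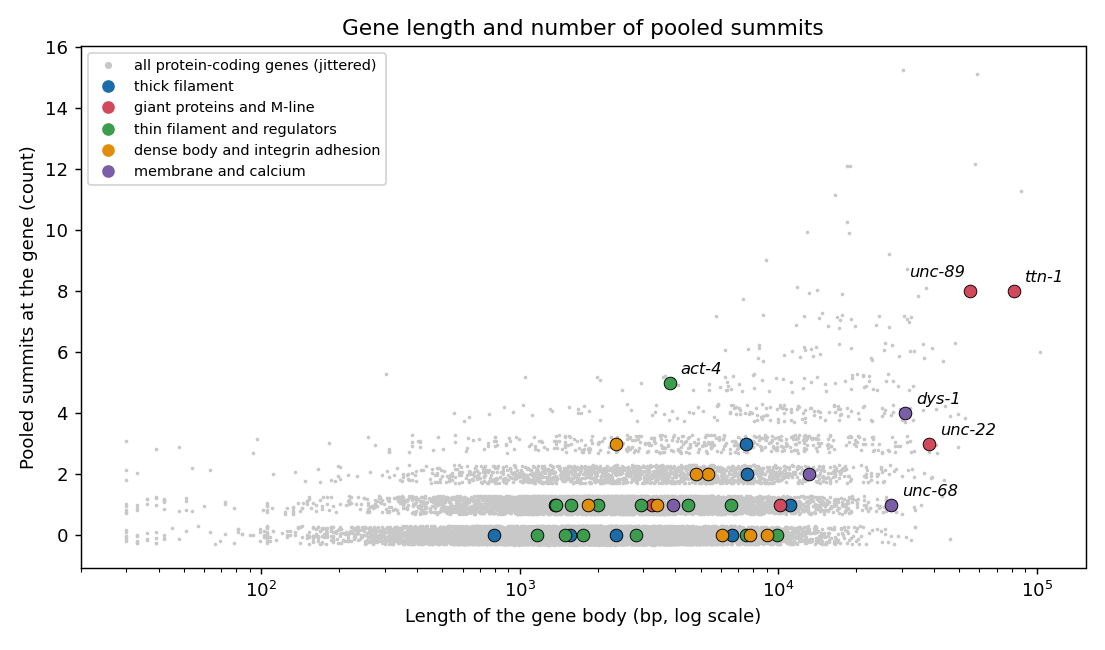
Number of pooled summits (vertical axis, count) against the length of the gene body (horizontal axis, bp, log scale) for all protein-coding genes (grey points, spread vertically by a small random amount) and the 38 muscle genes (coloured by role). The muscle genes of 8 summits, ttn-1 and unc-89, are the longest of the 38. With a body of 3793 bp, act-4 holds 5, some of them upstream of the body.

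Thin filament genes encode actin and the proteins that control it. A pooled summit was found at 8 of the 14, where similar length gives 5.45, and 3 had one seen in both replicates, where similar length gives 2.49. The actin gene act-4, with a body of 3793 bp (chrX:4960621-4964413), held 5 pooled summits in the body or upstream of it. Over 2838 genes of similar length the mean was 0.566, and none held more than 5. The ranks of the act-4 summits were 499, 1969, 2877, 5669 and 7889. Those of ranks 5669 and 7889 lay upstream of the body, by 67 and 771 bp. The first, with a signal of 37.4, lay in an intron 548 bp upstream of an internal TSS. It had rank 302 with a signal of 26.1 in replicate 1 and rank 10952 with a signal of 9.12 in replicate 2, so it stood near the top of one list and far down the other. The summit of rank 1969 showed the opposite order, with rank 11060 in replicate 1 and 1137 in replicate 2. The remaining 3 were each seen in 1 replicate within 100 bp, and for that of rank 2877 replicate 2 had a summit 160 bp away at rank 1829. The genes act-1 and act-2 share 1 pooled summit, which lies between them at rank 6683, and act-3 had none. Over 1128 coding bases act-1 and act-3 are identical, act-1 and act-2 share 96.2%, and act-1 and act-4 share 94.1%, so that summits in actin exons depend on how reads that map to several genes were treated.

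Among the regulators, unc-60, which encodes cofilin proteins that sever actin filaments, held the strongest summit. It lay at chrV:1474662, 424 bp upstream of a TSS at the same base as a TSS of the gene F53E2.2. Its pooled rank was 675 with a signal of 34.4, and it had rank 2291 with a signal of 16.3 in replicate 1 and rank 4351 with a signal of 11.8 in replicate 2. At tnt-2, a troponin T gene, a summit 567 bp upstream had rank 1649 in the pooled list and rank 2148 in replicate 1, and lay in the noncoding RNA gene F53A9.11. Replicate 2 had no summit within 100 bp of it, but had one 680 bp upstream of the TSS at rank 10483. The troponin C gene pat-10 had a summit 16 bp upstream of its nearest TSS, in a 5′ UTR of another transcript, at rank 2613. It was seen in both replicates, at ranks 7939 and 16312. The genes unc-87, a calponin-like protein, and unc-78, which assists cofilin, had summits of ranks 3342 and 3628, each seen in 1 replicate within 100 bp. For unc-78 replicate 2 had a summit 118 bp away at rank 12350.

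The tropomyosin gene lev-11 had no pooled summit, although replicate 1 ranked a summit in one of its introns 591 with a signal of 21.8. The best of 5 summits at lev-11 in replicate 2 had rank 6325 and lay elsewhere in that gene. The troponin T gene tnt-3 likewise had rank 1267 in replicate 2, rank 8924 in replicate 1 and no pooled summit. The third troponin T gene, mup-2, had only weak summits in replicate 2, the better at rank 22525. The genes tni-3 and unc-27, the troponin I genes among the 38, had no summit in any of the 4 lists. They are among the shortest of the 38, at 1491 and 1166 bp.

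Dense body and integrin adhesion genes encode the plates that tie thin filaments to the membrane. A pooled summit was found at 5 of the 8, where similar length gives 3.72, and their median best rank was 572, beside 2631 over all the muscle genes with a summit. The strongest lay at chrIII:96433, upstream of pat-4 (chrIII:89453-94809, minus strand), which encodes the integrin-linked kinase. It had a pooled signal of 44.2 and a −log10 q of 2.03, 3 ranks below the last called region. It had rank 1465 with a signal of 17.8 in replicate 1 and rank 175 with a signal of 25.1 in replicate 2. Its distance to the pat-4 TSS was 1624 bp, and the nearest protein-coding TSS was that of the short gene C29F9.8, 685 bp away. It lies in the interval between the end of that gene and the start of pat-4. Another pat-4 summit lay 602 bp upstream at rank 3697 and was seen in both replicates, at ranks 11024 and 7446.

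The kindlin gene unc-112 (chrV:14691855-14696654, minus strand) had a summit 393 bp upstream with a pooled rank of 319, a signal of 42.2 and a −log10 q of 1.57. Replicate 2 had a summit at the same base, at rank 507 with a signal of 19.4. In replicate 1 the summit lay 507 bp upstream of the TSS, 114 bp from the pooled one, at rank 675 with a signal of 21.2. It therefore did not count as seen in both, although both replicates had a strong summit in this promoter. At unc-97, which encodes the LIM domain protein PINCH, a summit lay 72 bp inside the gene, in its coding exon, at pooled rank 572 with a signal of 35.8. It was seen in replicate 1 at rank 4246 with a signal of 14.2 and in replicate 2 at rank 519 with a signal of 19.4. The parvin gene pat-6 had 3 pooled summits, the best at rank 2631 and seen in both replicates at ranks 6348 and 5274. That one lay 1971 bp upstream, and only 245 bp upstream of T21D12.12.

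The proteins PAT-4, UNC-97, PAT-6 and UNC-112 are known to bind one another below integrin. Of the 5 strongest summits at the 38 genes, 3 lay at genes of this complex, which was singled out after the values were seen. The LIM domain protein gene unc-95 had a pooled summit of rank 6211 and a rank of 1053 in replicate 2, with none in replicate 1. The vinculin gene deb-1, the alpha-actinin gene atn-1 and dim-1, which encodes an immunoglobulin domain protein, had no pooled summit. Their best replicate ranks were 8364, 8431 and 7092.

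**Figure D4:**
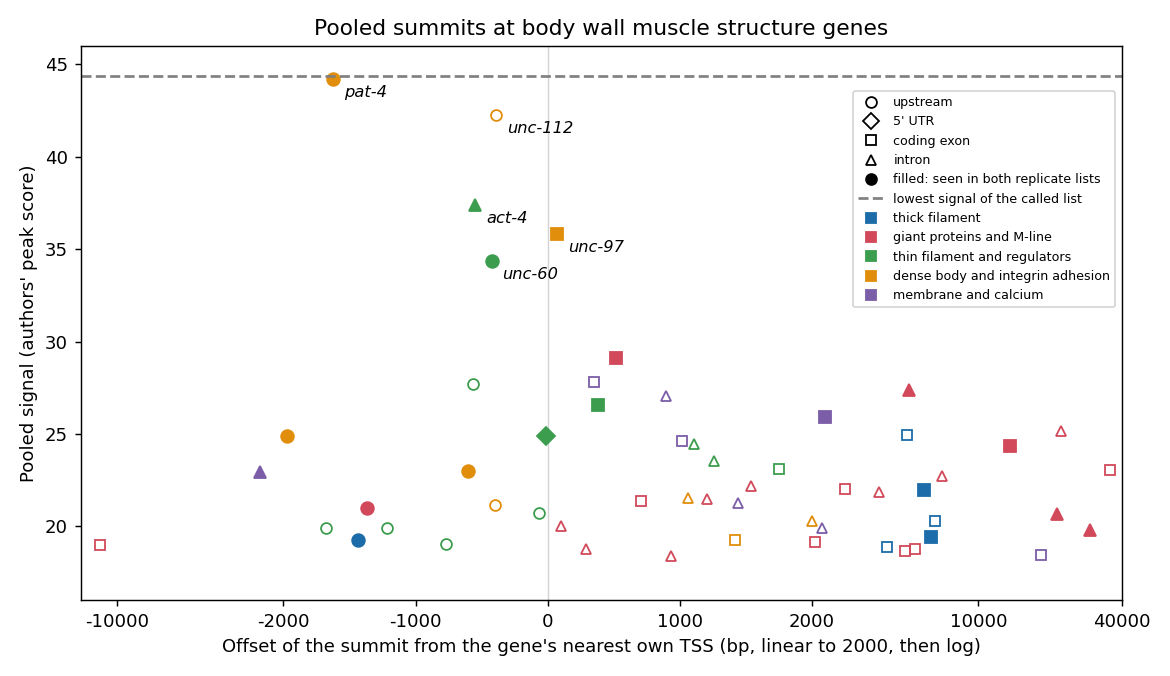
Pooled signal (vertical axis, the authors' peak score) of each summit at a muscle gene against its offset from the nearest TSS of that gene (horizontal axis, bp, linear to 2000 and then log); shapes give the annotation class, colours the role, and filled symbols were seen in both replicate lists. The 5 labelled summits, from 34.4 to 44.2, stand above all others, which reach 29.1, and lie below the lowest called signal, 44.4 (dashed line); the summit shared by act-1 and act-2 is drawn for each gene.

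The membrane and calcium handling genes were long, with a median body of 20258.5 bp, and all 4 had a pooled summit, where similar length gives 2.84. The dystrophin gene dys-1 held 4 pooled summits, beside a mean of 3.30 at similar length. The best pooled one, at rank 1619 with a signal of 27.8, was seen in replicate 2 at rank 1093 and not in replicate 1. Another, at rank 1842, was seen in replicate 1 at rank 1129 and not in replicate 2. The dys-1 summit that was seen in both replicates lay in an intron at rank 3723. It had rank 8827 in replicate 1 and rank 6197 in replicate 2. The syntrophin gene stn-1, whose product joins the dystrophin complex, had 1 summit in a coding exon at rank 2205 with a signal of 25.9, seen in both replicates at ranks 5834 and 10582. The summits of egl-19, the L-type calcium channel, lay in introns at ranks 5119 and 6665. Replicate 2 had a summit within 100 bp of each, at ranks 11925 and 22109. In replicate 1 the closest summits lay 142 bp and 109 bp away, at ranks 13530 and 2616. The ryanodine receptor gene unc-68 held 1 summit in 27358 bp, at rank 8834, beside a mean of 2.99 at similar length.

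Summits at the muscle genes lay mostly within genes, which follows in part from the rule. It admits only summits in the gene body or within 2000 bp of a TSS. Of the 55, 43 lay in the body of the muscle gene and 12 outside it, and the nearest protein-coding TSS was that of the muscle gene for 40. By the parts of the muscle gene itself, 22 lay in coding exons, 20 in introns, 12 upstream and 1 in a 5′ UTR. A summit within 1000 bp upstream of a TSS was found at 7 muscle genes (18.4%), act-4, tnt-2, pat-10, unc-60, unc-112, pat-4 and pat-6, beside 12.9% of all protein-coding genes. When each summit was put in 1 class over all genes, 21.8% of the member summits lay in promoters, beside 28.0% of all pooled summits and 47.9% of called ones. Coding exons held 38.2% of the member summits, beside 23.6% of all pooled and 1.87% of called ones. The member summits were picked by position at a gene and the others were not, so these class shares compare sets picked in different ways. Coding sequence makes up 48.7% of the muscle gene bodies and holds 51.2% of the summits in them. Over all protein-coding genes coding sequence makes up 38.3% of the bodies and holds 44.3% of their summits. Windows of 201 bases around member summits had a GC content of 42.8% ± 7.77 (SD, n = 55), beside 41.2% ± 6.998 over all pooled summits and 47.2% ± 6.37 over called ones. Those in coding exons had 46.3% ± 5.81 (n = 22) and the others 40.4% ± 8.08 (n = 33).

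By gene length, a pooled summit was found at 7 of the 14 muscle genes under 3000 bp (50%, beside 30.9% of all genes of that size), and at 10 of the 16 of at least 3000 and under 10000 bp (62.5%, beside 48.1%). It was found at all 8 of 10000 bp and over, beside 72.4%. These 8 have a median body of 29146 bp, against 13941 bp for all genes of 10000 bp and over. Genes of similar length gave 6.44 of the 8 (80.5%), 8.30 of the 16 (51.9%) and 4.37 of the 14 (31.2%). The X chromosome holds 12 of the 38 genes, and 6 of them had a pooled summit, beside 42.2% of all protein-coding genes there.

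A further 40 genes of body wall muscle, among them receptors, channels and integrin subunits, gave similar shares. A pooled summit was found at 26 (65.0%), where similar length gives 22.1, and 15 (37.5%) had one seen in both replicates, where it gives 12.2. One of the 40, the beta-spectrin gene unc-70, held a called summit, at pooled rank 93 with a signal of 62.4. It lay 1647 bp upstream of unc-70, in an exon of the noncoding RNA gene T19F4.6. The next best were lim-8 (rank 371), whose summit lies in a tRNA gene within it, and the potassium channel gene slo-1 (rank 609). Among 13 genes of pharyngeal muscle, which lies in the feeding organ and uses other myosin genes, 8 had a pooled summit, where similar length gives 6.22, and 1 had one seen in both replicates, where it gives 3.02. Their best ranks were 1834 for mlc-5, 3294 for avr-15 and 4838 for pha-4. No test of a difference between these lists was made.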

How the data were processed

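The data are ChIP-seq peak lists on build ce11 from 2 biological replicates of 1 group, per the labels. Per the text deposited with the samples, relaxed lists come from replicate and control alignments, and the 3 relaxed lists together gave the IDR list. Not given in the sources used here were the aligner, the peak caller and the read depth, so the precision of each peak is unknown. The signal is a score that the authors deposited for each peak, used to describe and rank peaks within a list. The deposited −log10 q value was used as another ranking and to count regions with q under 0.05. Lists on build ce10 were not used here.

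Summits were assigned to genes of Ensembl release 115 (WBcel235) with Python 3.11.15, numpy 2.4.6 and scipy 1.17.1, and figures were drawn with matplotlib 3.10.9. Sequence came from the RefSeq copy of WBcel235: no peak ran past a chromosome end, and 14455 of 14498 single-TSS genes had ATG at the annotated coding start. Coordinates are 1-based. Shares carry exact Clopper-Pearson 95% intervals. The assignment was tested on simulated peaks. With 1 group no test between conditions exists, and no test was made on the lists, since the members, lists and motifs were chosen with earlier results of these data known. By the rule for named genes, full values were given for the 10 best-ranked members, up to 15 with a summit seen in both replicates, and those with no summit. Of 41 further body wall muscle genes, 40 matched the annotation, tmd-1 being left out.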

Additional observations from a re-analysis of the deposited data

How the results depend on the processing

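Of 57 recomputed values under other settings, 48 stayed close to the main ones and 9 moved. Counts and expected counts were called close within 1.5 times. The median best rank and the median summits per kb were called close within the SD between the replicates. For summits per kb that SD, 0.145, is larger than the value, 0.118, so even a fall to 0 would have been called close. The tally is therefore no measure of stability. The count of 0 muscle genes with a called summit held at 1000 bp, at 5000 bp, within 2000 bp of a TSS alone and with whole peaks. The 25 genes with a pooled summit became 16 when only the upper 50% of the pooled list by signal counted. They became 33 at 5000 bp, where similar length gives 24.63. Leaving out either replicate, with the list of the other in place of the pooled one, gave 31 to 34. The 14 genes with a summit seen in both replicates became 9 when only summits within 2000 bp of a TSS counted, and 21 at 5000 bp. The first setting can only lower the count and the second only raise it, and no share over other genes is given for either. With 1 replicate left out the rule needs a match in the other list alone, so the count could only rise (19 to 20) and says nothing of how the 14 depend on a replicate. The median best rank, 29.08% of the list, was 36.94% at 1000 bp, 36.94% at 5000 bp and 16.29% to 27.39% of the other replicate's list without either replicate. No value over other genes is given for these settings. CAGCTG was found at 0 summits within 50 bp and 3 in whole peaks (reported, 1), and GAGACGCA at 1 and 4 (reported, 2). The cause was not tested. Alternatives chosen after seeing the data were nearest-TSS assignment (21 genes with a pooled summit, 10 seen in both) and replicate lists shortened to the pooled length (26 and 24). These can only lower the counts, and no share over other genes is given for them. No paired analysis was possible because there is only 1 group. Unknown depth, unknown treatment of multiply mapped reads and the background in relaxed lists limit what a single low-ranked summit shows.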
